A study of Mus musculus with 5 samples.

Results

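Hox genes were described in sections of embryonic mouse knees, as all targets of the probe panel named by cluster letter and paralog number. There were 34 such genes among 19346 tested targets, with 11 in the HoxA cluster, 7 in HoxB, 9 in HoxC and 7 in HoxD. RNA was read by GeoMx digital spatial profiling, which hybridises probes with barcodes to the section, frees the barcodes of a chosen region by light and sequences them. Knees were taken at E14.5, a mid-gestation stage at which joints form, from mice of the genotypes Prrx1-Cre, called control, and Prrx1-Cre Pdgfra GOF, called GOF, with 2 biological replicates each, taken here as animals. Both genotypes carry Prrx1-Cre, a recombinase driven in limb bud mesenchyme, and GOF adds an activating (gain-of-function) Pdgfra allele, whose gene encodes a receptor tyrosine kinase for platelet-derived growth factors. Tissue was formalin-fixed and paraffin-embedded, and stains for DNA and for Sox9 protein guided the choice of regions, so Sox9 and the cartilage genes that go with it are no finding between region types.

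Hox genes encode homeodomain transcription factors that lie in 4 clusters, and genes at the same place in different clusters form a paralog group. In the developing limb, genes of paralog groups 9 and 10 are known for patterning the upper segment, group 11 for the middle segment and group 13 for the hand and foot plate. Meis, Pbx and Pknox proteins bind DNA together with many Hox proteins as cofactors.

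The animals had 40 to 47 regions each, with 55471 to 617062 recovered counts a region. Region types were taken from the tags: inter-joint space, inter-joint perichondrium, border-zone cartilage, fusion (found in GOF animals alone), reference mesenchyme and reference cartilage. Each reference type rested on 1 region per animal, and the median SD between animals over all targets was 0.38 log2 units in reference cartilage and 0.30 in reference mesenchyme, against 0.10 to 0.13 in the other types. The forelimb factor Tbx5 had levels of 4.49 to 9.40 in the 3 joint types, and the hindlimb factors Pitx1 and Tbx4 had levels of 45.5 to 94.6 and 13.2 to 25.9 there. A level here is the authors' normalised signal, averaged on the log2(value + 1) scale over an animal's regions of a type and turned back to the linear scale. Each gene is read by its own probe, so levels are compared within a gene and not between genes.

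The 34 genes were matched by symbol to RefSeq on GRCm38.p6, the build of the mm10 coordinates. HoxA lies on chromosome 6, HoxB on chromosome 11, HoxC on chromosome 15 and HoxD on chromosome 2. Hoxa10 spans chr6:52231197-52240854, its neighbour Hoxa11 chr6:52242105-52245810 and Hoxa13 chr6:52258853-52260880. Hoxd11 spans chr2:74679558-74687016 and overlaps the Hoxd10 gene model at chr2:74684273-74695106. The files used here do not give probe positions, so signal from the overlapping models cannot be assigned further. The 250 bases before a RefSeq start are shown for Hoxa10, Hoxa11 and Hoxd11, whose variance over regions most exceeded that expected from counting. The first 2 varied together over regions and the last ran against Hoxa11. Hoxa10 and Hoxd11 have 2 starts each in RefSeq, and the start inside the gene span is used. Capitals mark matches on either strand to TTTATNG (bound by posterior Hox proteins), TGACAG (bound by Meis and Pknox proteins), CCAAT or TATAAA. The windows are chr6:52234940-52235189 on the minus strand, chr6:52245811-52246060 on the minus strand and chr2:74682073-74682322 on the plus strand.
Hoxa10: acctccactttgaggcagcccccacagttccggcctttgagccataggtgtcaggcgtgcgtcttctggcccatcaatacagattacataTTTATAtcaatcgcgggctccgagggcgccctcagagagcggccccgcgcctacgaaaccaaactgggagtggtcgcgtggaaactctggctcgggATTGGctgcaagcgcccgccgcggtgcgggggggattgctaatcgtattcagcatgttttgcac
Hoxa11: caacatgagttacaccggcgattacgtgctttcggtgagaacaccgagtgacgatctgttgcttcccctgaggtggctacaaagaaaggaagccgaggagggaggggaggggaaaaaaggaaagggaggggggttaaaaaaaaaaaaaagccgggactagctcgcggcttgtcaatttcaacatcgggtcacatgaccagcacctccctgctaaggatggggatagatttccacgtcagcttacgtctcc
Hoxd11: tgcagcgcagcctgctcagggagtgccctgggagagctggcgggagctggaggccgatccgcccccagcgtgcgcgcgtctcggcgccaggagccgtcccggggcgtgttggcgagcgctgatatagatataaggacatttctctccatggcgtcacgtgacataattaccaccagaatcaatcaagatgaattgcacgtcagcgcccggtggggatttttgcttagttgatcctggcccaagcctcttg
The Hoxa10 window held a TATAAA match and a CCAAT match, both on the opposite strand, and the other windows held none of these letters. The windows of the Hoxa10 and Hoxd11 starts not shown held none either, so the Hoxa10 matches depend on the start used. TTTATNG was present in 9.81% of 32851 windows of this length, TGACAG in 15.9%, CCAAT in 33.9% and TATAAA in 12.4%. Of 21 Hox windows, for 19 genes, CCAAT was present in 11, TATAAA in 3, TGACAG in 2 and TTTATNG in 1. These matches are descriptions of the letters and show no binding.

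Signal was set against the negative probe, which reads background and had a median of 2.81 over regions. A gene was counted above background in an animal and region type where its mean ratio to the negative probe was at least 2-fold. There were 22 combinations of animal and type. Hoxa10 and 5 HoxC genes, Hoxc4, Hoxc5, Hoxc6, Hoxc8 and Hoxc9, were above background in all 22, and Hoxb5 in none. Between 26.5% and 70.6% of the 34 genes were above background in a combination, with a median of 41.2%, beside a median of 50.5% over all targets. At a threshold of 3-fold the genes above background throughout were Hoxa10 and Hoxc6.

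In all 3 joint types and all animals, 11 genes were above background, namely Hoxa5, Hoxa9, Hoxa10, Hoxa11, Hoxc4, Hoxc5, Hoxc6, Hoxc8, Hoxc9, Hoxc10 and Hoxd9. No HoxB gene was above background in every animal of any type, and the 7 HoxB genes had levels between 0.777 and 10.9, with the extremes in reference regions. At the far end of the clusters, Hoxc12, Hoxc13, Hoxd12 and Hoxd13 were above background in 1 or 2 of the 22 combinations, while Hoxa13 was above it in 8.

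**Figure D1:**
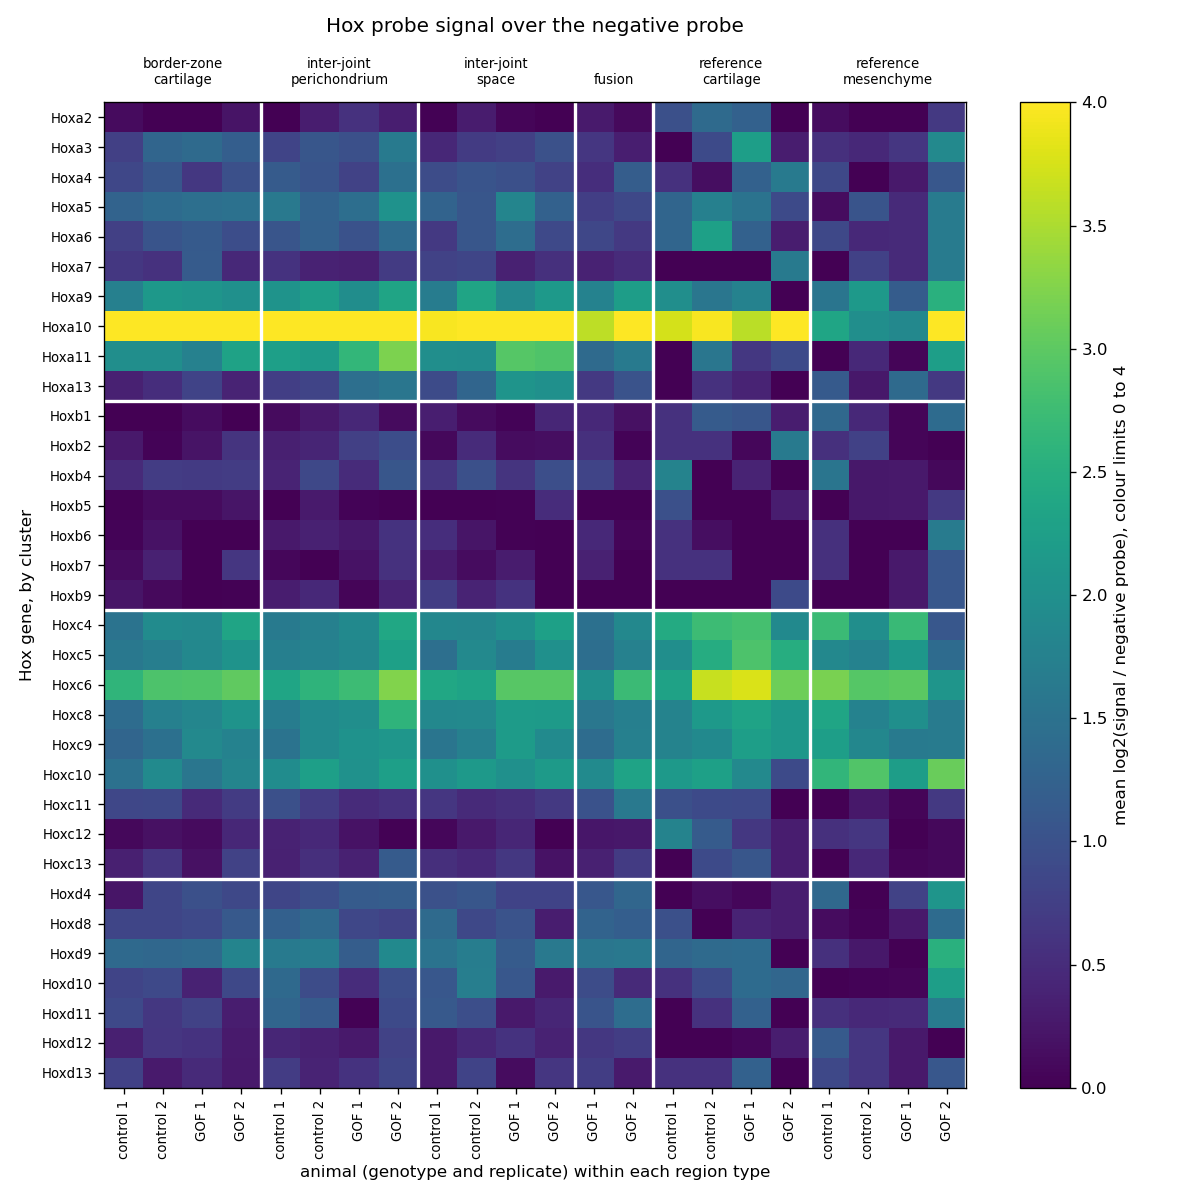
Mean log2 ratio of signal to the negative probe for the Hox genes reported here (rows, by cluster) in 22 combinations of animal and region type (columns), with colour limits at 0 and 4. Hoxa10 is bright in every joint-type column and dimmer in 3 of 4 reference mesenchyme columns, Hoxc4 to Hoxc10 form a second band, and the 7 HoxB rows are mostly dark.

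Among anterior and middle HoxA genes, levels in inter-joint perichondrium (control 1, control 2, GOF 1, GOF 2) were 2.65, 3.48, 4.55 and 2.69 for Hoxa2. Hoxa3 read 5.32, 5.81, 6.03 and 6.57, and Hoxa4 read 6.62, 5.71, 5.31 and 5.85. The genotypes overlapped for Hoxa2 and Hoxa4, and both GOF animals were above both controls for Hoxa3. Hoxa5 read 8.99, 6.59, 8.26 and 8.61, and Hoxa6 read 6.23, 6.53, 6.11 and 5.65. Hoxa9 read 12.2, 12.9, 11.7 and 10.6 there, with a range of 1.81 to 14.3 over all combinations. The low Hoxa9 value came from 1 reference cartilage region of GOF 2. In perichondrium the genotypes overlapped for Hoxa5, and both GOF animals were below both controls for Hoxa6 and Hoxa9. With 2 animals a genotype, separate levels can arise by chance alone. The share of all targets with separate levels was not counted, here or below.

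Posterior HoxA genes carried the strongest differences between region types. Hoxa10, which patterns the upper limb segment, read 53.3 and 56.4 in border-zone cartilage of the controls and 47.9 and 52.9 in that of GOF. In perichondrium it read 52.5, 54.8, 64.6 and 53.9. All joint levels of Hoxa10 lay between 47.9 and 68.8, far above the negative probe. Hoxa11, which patterns the middle segment, read 12.9, 11.4, 10.2 and 13 in border-zone cartilage, and 14.2, 12.6, 18.9 and 19.4 in perichondrium. Hoxa13, which patterns the hand and foot plate, read 4.30, 4.22, 5.18 and 3.58 in border-zone cartilage. In perichondrium it read 4.98, 4.90, 8.37 and 6.45. In border-zone cartilage the genotypes overlapped for Hoxa11 and Hoxa13, and both GOF animals were just below both controls for Hoxa10. In perichondrium they overlapped for Hoxa10, and both GOF animals were above both controls for Hoxa11 and Hoxa13.

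HoxC genes were the largest group above background. In perichondrium Hoxc4 read 9.32, 9.14, 11.2 and 10.9, Hoxc5 read 9.82, 9.39, 11 and 10.1, and Hoxc6 read 14.9, 16.5, 20.2 and 19.8. Hoxc8 read 9.38, 10.3, 12 and 12.7 there, and Hoxc9 read 8.41, 10.3, 12.4 and 9.03. The GOF animals were higher than both controls for Hoxc4, Hoxc5, Hoxc6 and Hoxc8, and these differences did not pass any of the tests used here. Hoxc10, a posterior gene known for its hindlimb expression, read 11.2, 13.1, 12.2 and 10.0. Hoxc11 read 5.87, 4.65, 4.33 and 3.41 and Hoxc12 read 3.89, 3.84, 3.54 and 2.25, both near background and lower in both GOF animals.

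In the HoxD cluster, only Hoxd9 was above background in every joint combination. Hoxd4 read 5.33, 5.50, 6.74 and 4.94 in perichondrium, Hoxd8 read 6.93, 7.21, 5.50 and 3.87, and Hoxd9 read 9.31, 8.97, 6.88 and 7.98. Hoxd10 read 7.79, 5.38, 4.45 and 4.17, and Hoxd11, the HoxD partner of Hoxa11 in middle segment patterning, read 7.50, 6.27, 3.19 and 4.08. Both GOF animals were below both controls for Hoxd8 to Hoxd11 in this type, an order whose share over all targets was not counted. Of the other genes, Hoxa7, all HoxB genes, Hoxc13, Hoxd12 and Hoxd13, were above background in at most 4 of the 22 combinations.

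The first comparison asked how the Pdgfra gain-of-function allele changed these levels in each joint type. In inter-joint space, Hoxa11 read 12.6 and 11.2 in the controls and 23 and 18.8 in GOF. Hoxa13 read 6.01 and 7.03 in the controls and 12.6 and 10.2 in GOF, and Hoxd11 read 7.01 and 5.89 in the controls and 3.68 and 3.44 in GOF. For all 3 genes the genotypes were separate, with the HoxA genes higher and Hoxd11 lower in GOF. Hoxa10 read 49.2 and 56.1 in the controls and 68.8 and 58 in GOF, and Hoxd10 read 6.75 and 9.35 against 6.35 and 3.24.

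Differences were tested with limma, with animal as a random block and Benjamini-Hochberg adjustment over all targets, calling an adjusted p below 0.05. With all 6 region types sharing a spread estimate (the pooled fit), 0 of 34 Hox genes were called in inter-joint space, beside 0.103% of all targets, and 0 had an unadjusted p below 0.05. In that fit the Hoxa11 difference was 0.76 log2 units (SE 0.37, adjusted p = 1.0). A fit without the reference types (the joint-region fit) called 3 genes, beside 2.69% of all targets: Hoxa11 was 0.76 higher in GOF (SE 0.14, adjusted p = 0.000415), Hoxa13 was 0.72 higher (SE 0.17, adjusted p = 0.0102) and Hoxd11 was 0.70 lower, at a difference of -0.70 (SE 0.18, adjusted p = 0.0224). Hoxd11 was above background in 1 of 4 animals of this type and in neither GOF animal, so the size of its difference is set partly by background. Hoxa13 was above background in 3 of 4 animals of this type, so the same limit holds for it. The count test of edgeR on recovered counts called the same 3 genes, beside 1.86% of all targets, and a pooled fit with a weight for each region type called Hoxa11 and Hoxa13, beside 2.01%. The smallest of the type weights, 0.201, was that of reference cartilage, and the largest was 2.70, that of perichondrium. In the joint-region fit the Hoxa11 call was lost without control 2 (adjusted p = 0.0795) and kept without each other animal. The Hoxa13 call held only without GOF 2 (adjusted p = 0.00223), with adjusted p from 0.0604 to 0.395 without each other animal, and the Hoxd11 call was lost without control 2 (adjusted p = 0.131) and without control 1 (adjusted p = 0.532).

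In inter-joint perichondrium the pooled fit called 0 Hox genes, beside 0.0155% of all targets and with 0 at an unadjusted p below 0.05. The joint-region fit called Hoxd11, beside 1.03% of all targets, with a difference of -0.77 log2 units (SE 0.18, adjusted p = 0.0198). This call was lost without GOF 1 (adjusted p = 0.102), without control 2 (adjusted p = 0.161) and without control 1 (adjusted p = 0.853). The fit with type weights called Hoxd11 too, beside 1.45% of all targets. edgeR called 5 genes, beside 1.18% of all targets: Hoxa11 and Hoxa13 were higher in GOF, and Hoxd8, Hoxd10 and Hoxd11 were lower. For Hoxd11 its difference was -1.15 log2 units (edgeR adjusted p = 3.36e-05). Summed counts give high regions more weight than a mean of logs does. The control perichondrium regions highest in Hoxd11 read 66.35, 40.25, 30.22 and 28.45 for it, and 29.37, 23.93, 21.76 and 36.82 for Hoxd10. Their part in the edgeR calls was not tested. Hoxa13, Hoxd8 and Hoxd11 were above background in 2 of 4 perichondrium animals and Hoxd10 in 1 of 4. The sizes of their differences are thus set partly by background.

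In border-zone cartilage 0 of 34 genes were called by the pooled fit, the joint-region fit or edgeR, and 0 had an unadjusted p below 0.05 in the pooled fit, beside 0.00517% of all targets called. The joint-region fit called 0.212% of all targets there, edgeR 0.16% and the fit with type weights 0.372%. The Hoxa11 difference there was -0.07 (SE 0.14 in the joint-region fit, 95% interval -0.36 to 0.22). The genotype difference of Hoxa11 in inter-joint space exceeded that in border-zone cartilage by 0.83 log2 units in the joint-region fit (SE 0.19, adjusted p = 0.0122), beside 0.765% of all targets called. That call held only without GOF 2, with adjusted p from 0.27 to 0.39 without each other animal, and the pooled fit did not make it (0 Hox genes at an unadjusted p below 0.05, 0 by edgeR beside 0.279%, and 0 with type weights beside 0.636%). The other interactions between joint types gave 0 Hox calls in each fit, with 0.0672% of all targets called for perichondrium against border-zone cartilage and 0.0155% for inter-joint space against perichondrium in the joint-region fit (0.103% and 0.0103% with type weights, 0% by edgeR and in the pooled fit). Over the region types found in both genotypes, each weighted equally, limma called 0 Hox genes, beside 0.227% of all targets. In that fit 4 Hox genes had an unadjusted p below 0.05. By edgeR, on counts summed over all regions of these types, Hoxa13 was called higher and Hoxd10 and Hoxd11 lower, beside 1.83%. In these sums, types with more regions or more counts weigh more, and their mix differed between animals. As a list, 13 of 34 genes had a positive difference in inter-joint space, with a median of -0.10 beside -0.04 over all targets, so signs were mixed.

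**Figure D2:**
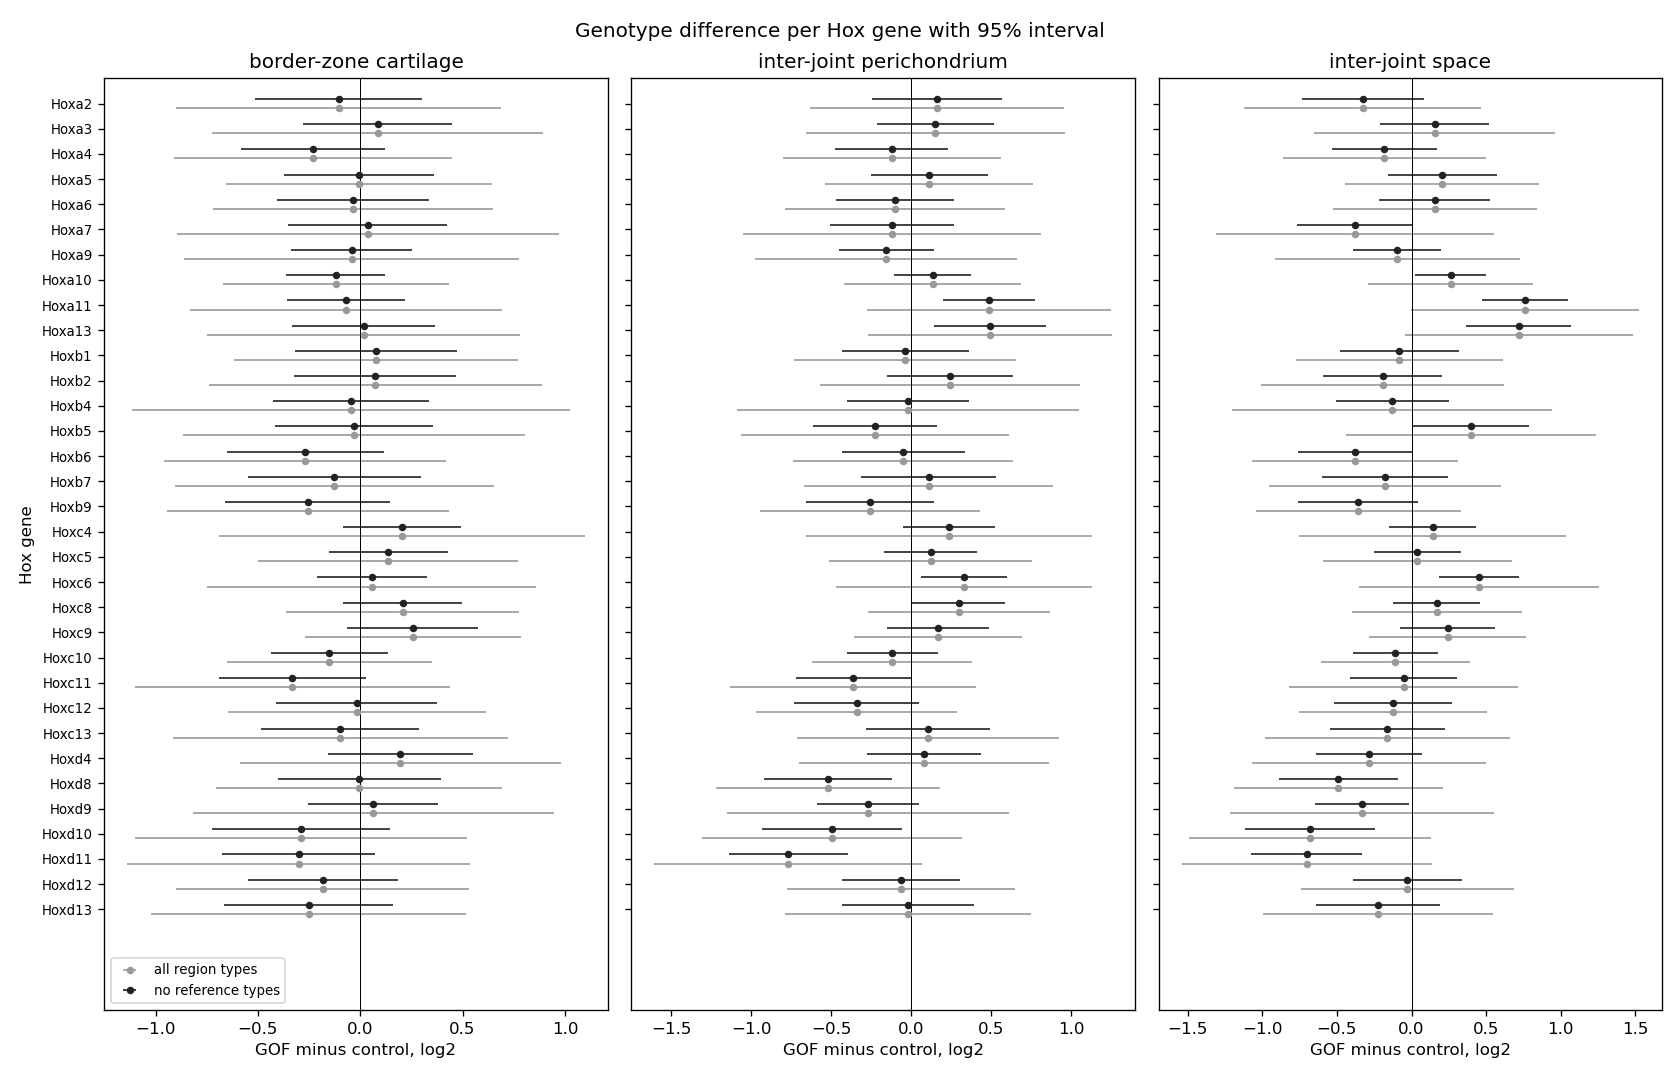
GOF minus control difference (log2 units, horizontal axis) with its 95% interval for each Hox gene reported here in 3 joint types, from the pooled fit (grey) and the fit without the reference types (black). In inter-joint space Hoxa11 and Hoxa13 lie to the right at 0.76 and 0.72 and Hoxd11 to the left at -0.70, and in border-zone cartilage no interval for these genes clears 0.

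Some markers of other tissue moved with genotype in inter-joint space and perichondrium, and others overlapped. The summed level of 10 joint interzone markers was 904 to 972 in the controls and 391 to 463 in GOF, and that of 12 chondrocyte markers was 903 to 942 in the controls and 992 to 1270 in GOF. The 9 endothelial markers summed to 52.7 to 53.3 in the controls and 68.6 to 73.7 in GOF. The Cre target read 80.4 and 89.4 in the controls and 140 and 91.4 in GOF. In perichondrium the interzone markers summed to 504 to 632 in the controls and 347 to 381 in GOF. The chondrocyte sums there overlapped, at 1992 to 2189 in the controls and 1409 to 2699 in GOF. The endothelial sums there overlapped too, at 47.55 to 50.74 in the controls and 45.77 to 48.13 in GOF. The part of these markers in the Hox differences of either type was not tested. In these bulk regions, fewer cells of a type and less RNA per cell cannot be told apart.

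**Figure D3:**
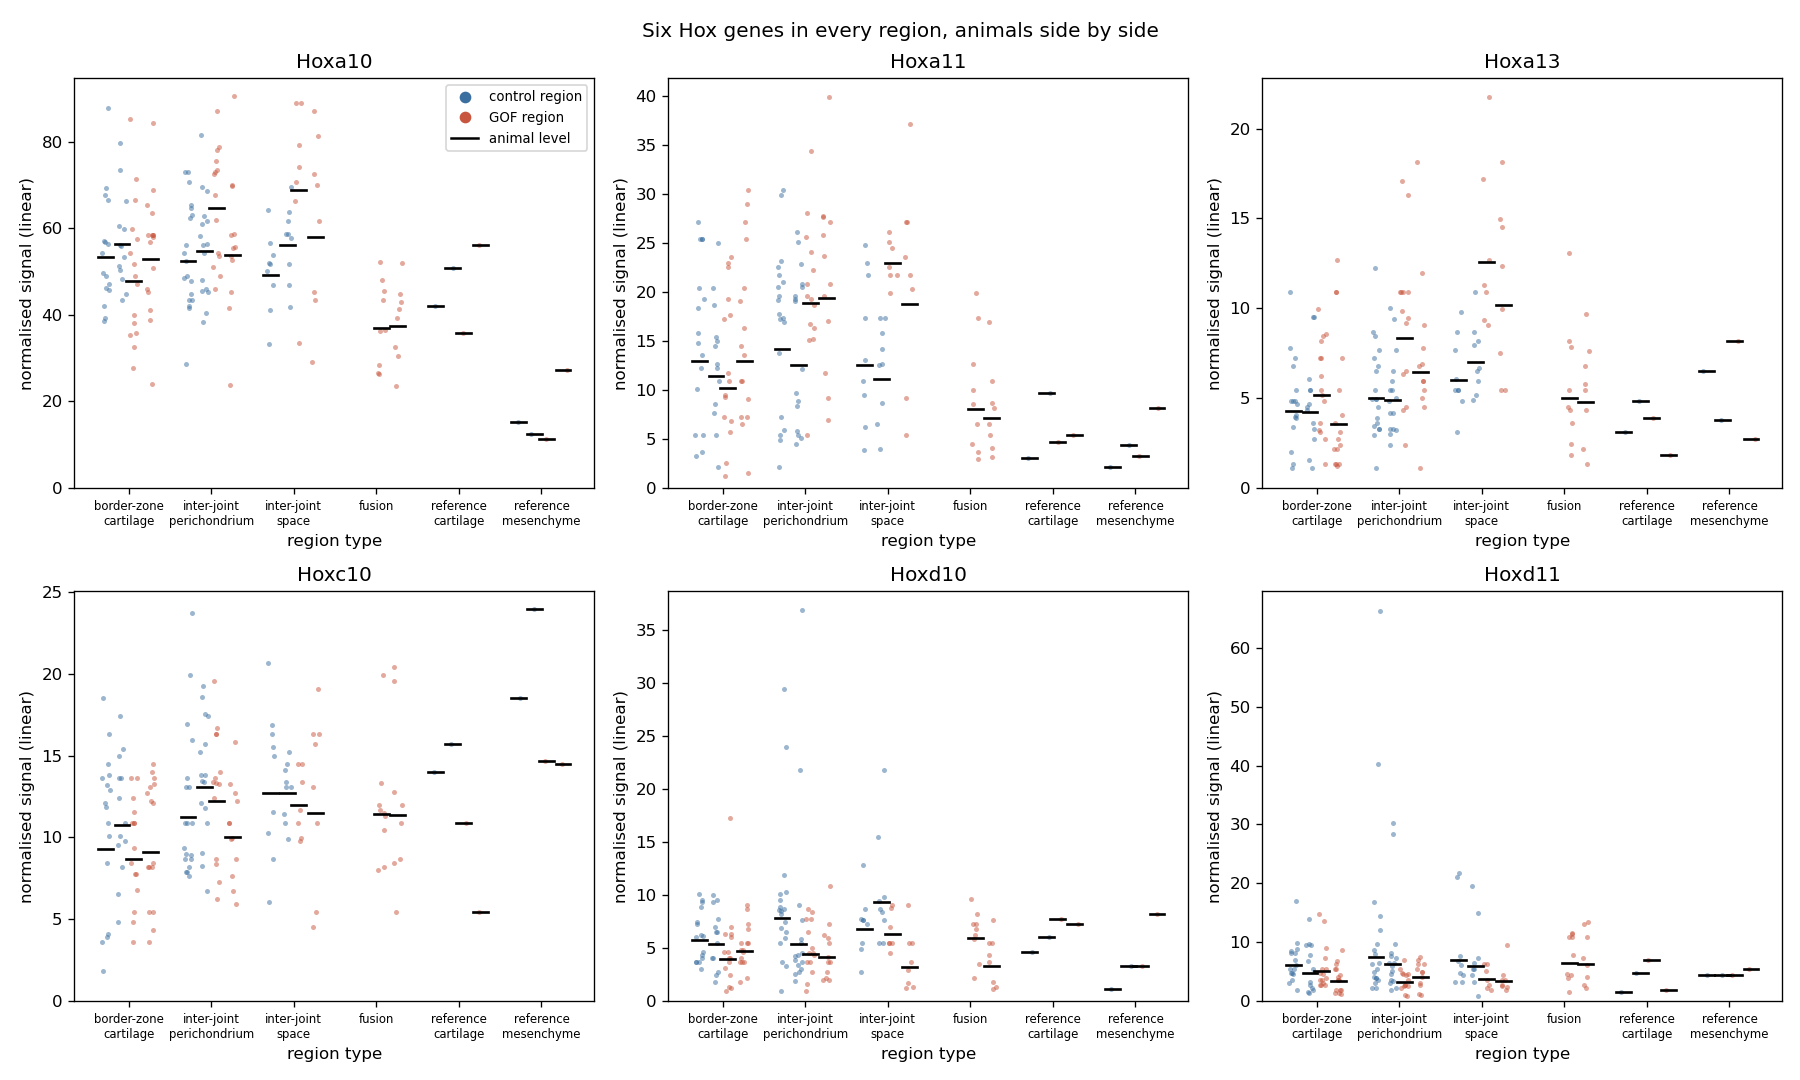
Normalised signal (linear axis from 0) of Hoxa10, Hoxa11, Hoxa13, Hoxc10, Hoxd10 and Hoxd11 in every region, by region type and animal, with control in blue and GOF in red. Black bars are the animal levels. Hoxa11 reaches 23 and 18.8 in GOF inter-joint space and 8.09 and 7.15 in fusion regions, and the highest Hoxd11 regions are control.

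The second comparison set fusion regions, found in GOF animals alone, against the other joint types. There were 9 fusion regions in GOF 1 and 8 in GOF 2. Hoxa10 read 37 and 37.4 in fusion regions, below both GOF animals in each joint type. Hoxa11 read 8.09 and 7.15, and Hoxa13 read 4.98 and 4.78. Both of these lay below the levels of GOF inter-joint space, and Hoxa13 overlapped those of border-zone cartilage. Against GOF inter-joint space the pooled fit called 0 Hox genes, beside 0.222% of all targets, with 4 at an unadjusted p below 0.05.

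The joint-region fit called 8 genes in that comparison, 7 lower and 1 higher in fusion, beside 4.57% of all targets in either direction. Hoxa11 was lower, with a difference of -1.34 log2 units (SE 0.13, adjusted p = 9.23e-10), Hoxa13 with -1.07 (SE 0.16, adjusted p = 8.31e-06) and Hoxa10 with -0.75 (SE 0.11, adjusted p = 5.88e-06). These 3 calls were made in the joint-region fit without each animal in turn, with adjusted p of at most 0.00342, and by edgeR, beside 2.17%, and by the fit with type weights, beside 2.49%. Hoxc6 read 12.1 and 15 in fusion and 23.2 and 19.5 in GOF inter-joint space (difference -0.62, adjusted p = 0.000718), and the call was lost without GOF 1 (adjusted p = 0.185). Hoxa5, Hoxc4 and Hoxc8 were lower by smaller margins, with differences of -0.64, -0.47 and -0.51. Hoxa13 was above background in 1 of 2 fusion animals and Hoxa5 in 0. Hoxd11, the gene called higher, was above it in neither GOF animal of inter-joint space. The sizes of the differences of Hoxa13, Hoxa5 and Hoxd11 are thus set partly by background. Without GOF 1 the adjusted p for Hoxa5 was 0.287, Hoxc4 was not called in any fit that left out an animal (adjusted p = 0.079 to 0.158), and Hoxc8 was called only without control 1 (adjusted p = 0.0487). Hoxd11 was higher in fusion, at 6.47 and 6.34 against 3.68 and 3.44, a difference of 0.70 (SE 0.17, adjusted p = 0.00824), and its call was lost without GOF 2 (adjusted p = 0.0739).

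Against GOF perichondrium the joint-region fit called Hoxa11 (-1.23, adjusted p = 4.87e-08), Hoxa10 (-0.65, adjusted p = 0.000234), Hoxa5, Hoxc6 and Hoxc8 lower, and Hoxc11 and Hoxd11 higher, beside 1.47% of all targets. The Hoxa10 and Hoxa11 calls were made without each animal in turn. The Hoxa5 call was lost without GOF 2 (adjusted p = 0.211) and the Hoxc6 call without GOF 1 (adjusted p = 0.282). Hoxc11 was called only without GOF 1 (0.0777 to 0.532 otherwise), Hoxd11 only without GOF 2 (0.0786 to 0.279 otherwise), and Hoxc8 in no fit that left out an animal (0.0717 to 0.521). The pooled fit called 0 Hox genes and 0 targets (0%), with 3 Hox genes at an unadjusted p below 0.05, and edgeR called Hoxa10, Hoxa11 and Hoxd11, beside 0.734%. The fit with type weights called Hoxa5, Hoxa10, Hoxa11 and Hoxc6, beside 1.13%. Hoxc11 read 6.19 and 7.11 in fusion regions and 4.33 and 3.41 in GOF perichondrium, and fusion was the only type in which it was above background in every animal. Hoxa5 was above background in 0 of 2 fusion animals, Hoxc11 in 0 of 4 perichondrium animals and Hoxd11 in 2 of 4. The sizes of their differences are thus set partly by background.

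Against GOF border-zone cartilage, the joint-region fit called 4 genes lower, Hoxa3, Hoxa10, Hoxa11 and Hoxc6, beside 1.19% of all targets. Hoxc6 read 21.6 and 20.9 in that cartilage (difference -0.62, adjusted p = 0.00225), and Hoxa10 and Hoxa11 had differences of -0.43 (adjusted p = 0.0379) and -0.54 (adjusted p = 0.0229). The Hoxa10, Hoxa11 and Hoxa3 calls were lost without GOF 2 (adjusted p = 0.371, 0.739 and 0.404) and without either control, and the Hoxc6 call was lost without GOF 1 (adjusted p = 0.161). The pooled fit called 0 Hox genes, beside 0.0103%, with 0 at an unadjusted p below 0.05. By counts, edgeR called Hoxa3, beside 0.372%, and the fit with type weights called Hoxc6, beside 0.817%. Against control inter-joint space, the joint-region fit called Hoxa10 (-0.49, adjusted p = 0.00625), Hoxa11 (-0.58, adjusted p = 0.00662) and Hoxd10 (-0.71, adjusted p = 0.0418) lower, beside 5.21%. The Hoxa10 call was lost without control 2 (adjusted p = 0.311), the Hoxa11 call without control 1 (0.284) or control 2 (0.0543), and the Hoxd10 call held only without GOF 1 (0.000674). The pooled fit called 0 there, beside 0.729%, with 0 at an unadjusted p below 0.05. By counts, edgeR called 0 as well, beside 4.15%, and the fit with type weights called Hoxa10, beside 4.09%. Hoxa3 and Hoxd10 were above background in 0 of 2 fusion animals, so the sizes of their differences are set partly by background.

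The 12 chondrocyte markers summed to 3376 to 4248 in fusion regions, against 992 to 1270 in GOF inter-joint space and 4323 to 5967 in GOF border-zone cartilage. Prrx1, the source of the Cre driver's promoter, read 16.4 and 24.1 in fusion regions and 84.6 and 48.8 in GOF inter-joint space. Their part in the HoxA differences was not tested. The comparisons with fusion share the fusion regions, so they are not separate evidence of each other.

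The third comparison set the joint types against each other over both genotypes. Hoxa13 stood out in inter-joint space, with levels of 6.01, 7.03, 12.6 and 10.2, above all 4 border-zone cartilage levels. The joint-region fit put it 0.86 log2 units higher than in border-zone cartilage (SE 0.11, adjusted p = 1.36e-07), also without each animal in turn (adjusted p at most 0.000377). Hoxa13 was not above background in any border-zone cartilage animal, with ratios of 1.29 to 1.75 to the negative probe, so the size of this difference is set partly by background. The same fit called Hoxa11 (0.39) and Hoxc10 (0.34) higher and Hoxa3 (-0.37) lower as well. Those 4 of 34 genes are 11.8%, near the 11.1% of all targets called. Without control 1 the adjusted p was 0.0664 for Hoxa11, 0.222 for Hoxc10 and 0.14 for Hoxa3, and without control 2 it was 0.0704, 0.0625 and 0.362. Without GOF 1, Hoxa11 (0.14) and Hoxa3 (0.129) were not called. The 12 chondrocyte markers summed to 4323 to 5967 in border-zone cartilage and 902.5 to 1270 in inter-joint space, and the 10 interzone markers to at most 200.4 in border-zone cartilage and 391 to 972 in inter-joint space. Their part in these differences was not tested. The pooled fit called 0 Hox genes, beside 2.01%, with 1 at an unadjusted p below 0.05. By counts, edgeR called Hoxa13 and Hoxa3, beside 7.45%, and the fit with type weights called Hoxa11, Hoxa13 and Hoxc10, beside 9.73%.

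Perichondrium was higher than border-zone cartilage in the joint-region fit for Hoxa11 (0.41, adjusted p = 0.00341) and Hoxa13 (0.41, adjusted p = 0.0219), beside 4.17% of all targets, and edgeR (beside 3.35%) and the fit with type weights (beside 4.76%) called the same pair. Neither was called without control 1 or without control 2 (adjusted p = 0.0996 to 0.312), and Hoxa13 was not called without GOF 2 (0.0674). Hoxa13 was 0.45 higher in inter-joint space than in perichondrium (adjusted p = 0.016, beside 2.61%), a call made only without GOF 1 among the fits that left out an animal (adjusted p = 0.0528 to 0.446 otherwise). The pooled fit called 0 Hox genes in both, beside 0.501% and 0.0258%, with 0 at an unadjusted p below 0.05. By counts, edgeR called 0 in the second, beside 1.34%, and the fit with type weights called Hoxa13 there, beside 2.32%. Hoxa13 was above background in 0 of 4 border-zone cartilage, 2 of 4 perichondrium and 3 of 4 inter-joint space animals. The sizes of its differences are thus set partly by background.

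The reference regions gave the Hox calls of the pooled fit. In reference mesenchyme Hoxa10 read 15.2, 12.5, 11.4 and 27.2, below every joint level. It was lower than in perichondrium, with a difference of -1.78 log2 units (SE 0.19, adjusted p = 9.87e-07), and lower than in reference cartilage, where it read 42, 50.8, 35.7 and 56.2 (difference -1.48, adjusted p = 6.31e-06). Hoxa11 read 2.18, 4.35, 3.26 and 8.16 in reference mesenchyme, with a difference of -1.74 from perichondrium (SE 0.26, adjusted p = 0.000102). Hoxa11 was above background in 1 of the 4 mesenchyme animals. These 2 of 34 genes stand beside 4.79% of all targets called. The fit with type weights called the same 2 genes, beside 4.6%, and edgeR also called Hoxc10 higher and Hoxd9 lower, beside 6.31%. The Hoxa10 calls were made without each animal in turn, and the Hoxa11 call was lost without GOF 1 (adjusted p = 0.0601).

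Hoxc10 ran the other way. In reference mesenchyme it read 18.5 and 23.9 in the controls, with a mean of 14.6 ± 0.13 (SD, n = 2) in GOF, and 14, 15.7, 10.9 and 5.44 in reference cartilage (difference 0.66, SE 0.17, adjusted p = 0.0102). Between these types the pooled fit also called Hoxc12 (-0.95, adjusted p = 0.00359), Hoxc5 (-0.79, adjusted p = 0.0144) and Hoxa2 (-0.82, adjusted p = 0.0403) lower in mesenchyme, so 5 of 34 genes, or 14.7%, were called beside 16.2% of all targets. Hoxc12 and Hoxa2 were above background in 0 of 4 mesenchyme animals and 2 of 4 reference cartilage animals, so their differences are set partly by background. Only Hoxa10 was called by edgeR, beside 4.82%, and by the fit with type weights, beside 3.59%. Without control 1 the adjusted p was 0.0526 for Hoxc10, 0.0749 for Hoxc12, 0.0579 for Hoxc5 and 0.0819 for Hoxa2. Without control 2 it was 0.0777 for Hoxc10, 0.141 for Hoxc5 and 0.265 for Hoxa2, without GOF 1 it was 0.0558 for Hoxc12 and 0.342 for Hoxa2, and without GOF 2 it was 0.173 for Hoxc10 and 0.127 for Hoxc5.

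Skeletal muscle markers moved with reference mesenchyme. The 10 muscle markers summed to 778 to 1273 there, all of them above background in each animal, and to 37.2 to 50.2 in perichondrium. Their part in the Hoxa10, Hoxa11 and Hoxc10 values was not tested. Hoxa11 read 3.11, 9.67, 4.66 and 5.44 in reference cartilage, against 10.2 to 13 in border-zone cartilage, a difference of -1.02 log2 units that did not pass the test in the pooled fit (SE 0.26, adjusted p = 0.0507, with 0 Hox genes called beside 1.32% and 8 at an unadjusted p below 0.05) and passed by edgeR (-1.22, adjusted p = 0.0392, beside 0.698%). With type weights 0 Hox genes were called there, beside 0.336%.

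Single regions showed how these genes varied within a type. The variance over regions of an animal and type, divided by that expected from counting, was 5.45 for Hoxd11, 3.89 for Hoxa11, 3.19 for Hoxa10, 3.03 for Hoxd9 and 3.02 for Hoxd10. For the 7 HoxB genes it lay between 0.746 and 1.05, the level of counting error alone. This ratio grows with a gene's counts, so it does not rank how far levels moved. The median count per region was 54 for Hoxa10 and 5 for Hoxd10 and Hoxd11. Correlations over the joint and fusion regions (38 to 45 per animal), centred on the mean of each animal and type, are given as descriptions, since regions of an animal share their source. Of 561 pairs of Hox genes the median correlation was 0.01, and 14 pairs passed 0.3 in size.

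Hoxa10 and Hoxa11 had the highest correlation of any pair, at 0.61, with 0.60 to 0.64 in each animal. Hoxd8 and Hoxd9 had 0.50 (0.39 to 0.61 in each animal). Hoxd10 and Hoxd11, whose gene models overlap, had 0.35, with 0.52 and 0.50 in the controls, 0.25 in GOF 1 and -0.01 in GOF 2. Hoxa11 and Hoxd11, partners of the same paralog group, had the lowest at -0.40, and it was negative in every animal (-0.26 to -0.62). The region highest in Hoxd11 was a control 1 perichondrium region with 66.4 for Hoxd11, 29.4 for Hoxd10 and 2.18 for Hoxa11. The 7 regions highest in Hoxd11, a number chosen after their values were seen, were control regions of perichondrium or inter-joint space. The next was a control border-zone cartilage region at 16.9, and the highest GOF region was also border-zone cartilage, at 14.7. In the first 7 the Hoxa11 values were between 2.18 and 9.67, below both control levels in perichondrium.

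Among 10092 targets whose mean level was at least 2-fold that of the negative probe, those most like Hoxa11 over regions were Prrx1 (0.61), Hoxa10, Pcdh18 (0.58) and the Cre target (0.57). The most opposed were the cartilage genes Cnmd (-0.66), Col9a3 (-0.65) and Col9a2 (-0.60). Hoxa10 was most like Prrx1 (0.66) and was opposed to Cnmd (-0.54). Hoxd11 had the other sign, with Scube3 (0.49), Sox9 (0.46) and Wwp2 (0.46) most like it. The correlation with the negative probe was 0.15 for Hoxa11, 0.03 for Hoxa10 and -0.11 for Hoxd11 over all animals. In single animals it differed: for Hoxa11 it was 0.43 in control 1, 0.37 in control 2, -0.21 in GOF 1 and 0.05 in GOF 2. For Hoxd11 it was -0.49 in control 1, -0.16 in control 2, 0.27 in GOF 1 and 0.06 in GOF 2. Control 1 was also the animal with the most negative correlation of Hoxa11 with Hoxd11, and the part of background in that correlation was not tested.

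**Figure D4:**
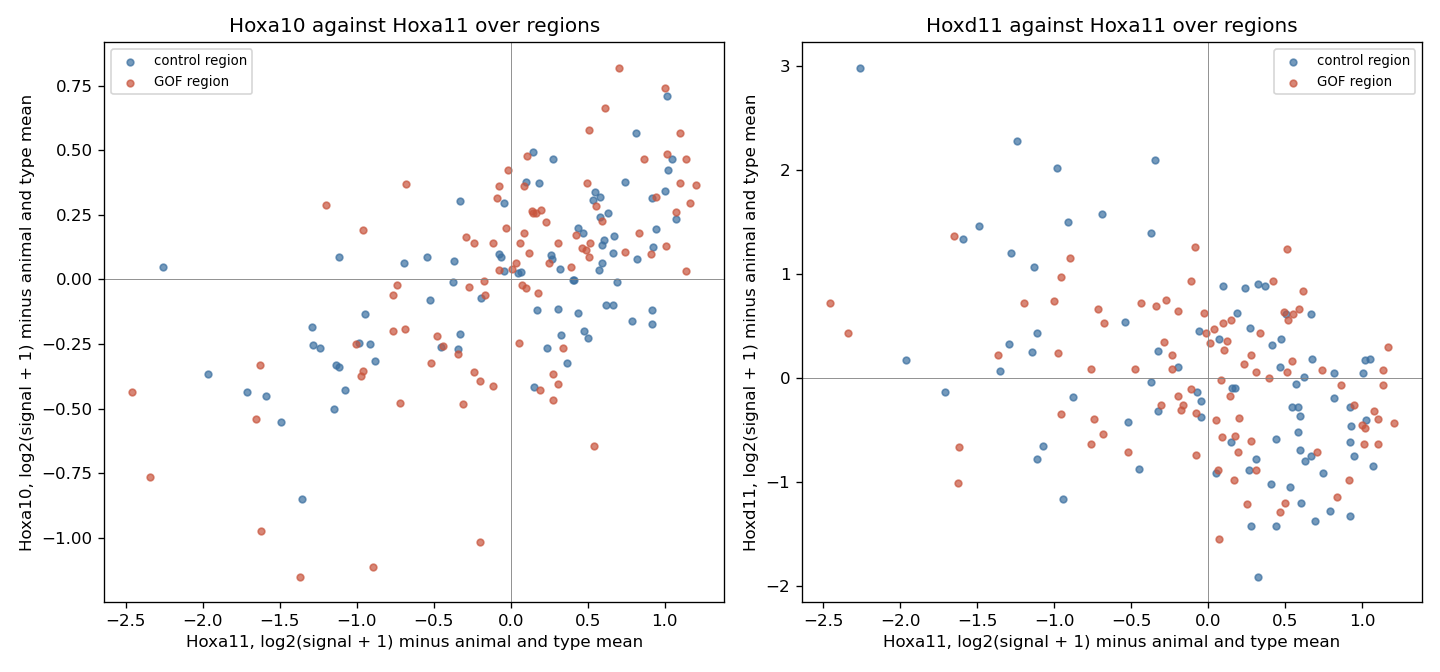
Hoxa10 (left) and Hoxd11 (right) against Hoxa11 in the joint and fusion regions of 4 animals, each on the log2(value + 1) scale minus the mean of its animal and region type. Hoxa10 rises with Hoxa11 (correlation 0.61) and Hoxd11 falls with it (correlation -0.40), in control (blue) and GOF (red) regions.

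Genes that work with or on the Hox clusters were counted from lists. Of 11 cofactors of the Meis, Pbx and Pknox families, 0 were called between genotypes in any joint type by the pooled fit, which called 0.00517% to 0.103% of all targets there. The joint-region fit called Pknox2 lower in GOF inter-joint space, beside 2.69%, and edgeR called Pknox2 lower in both, beside 1.18% and 1.86%. In the pooled fit, in reference mesenchyme Meis2 was lower than in perichondrium (-1.11, adjusted p = 0.0206), beside 4.79% of all targets, and against reference cartilage Meis1 (1.01) and Pknox2 (0.66) were higher and Meis2 (-0.95) was lower, beside 16.2%. Of 15 limb position and limb type factors, the pooled fit called Shox2 lower in inter-joint space than in border-zone cartilage (-0.95, adjusted p = 0.000318), beside 2.01% of all targets. The pooled fit also called Lhx9 lower in fusion regions than in GOF inter-joint space (-1.29, adjusted p = 0.0179), beside 0.222%. It called 4 of them lower in reference mesenchyme than in perichondrium, beside 4.79% of all targets, among them Hand2 (-2.06, adjusted p = 3.34e-06). Of 19 measured genes beside or acting on the clusters, such as Polycomb group genes, 1 was called between reference mesenchyme and perichondrium, Phc2 (-0.68, adjusted p = 0.0421), beside 4.79% of all targets, and 5 between the reference types, 3 higher and 2 lower in mesenchyme, beside 16.2%. Between the reference types, the fit with type weights and edgeR called 0 of these genes and 0 of the cofactors, beside 3.59% and 4.82% of all targets.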

How the data were processed

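Per the file headers, the authors deposited signal for each target and region, scaled so that the upper quartile was 10.9 in every region; the submitters' processing notes name Seurat and mm10. Dividing by the smallest step gave whole counts for 99.98% of values, within 0.01. Region position within the knee and probe positions were not stated. From the signal, 1 mean of log2(value + 1) per animal and type (22 means) was formed and tested with limma 3.58.1 (trended variance, animal as a random block) in R 4.3.3, with Benjamini-Hochberg adjustment over 19346 targets. Recovered counts, summed per animal and type, were tested with edgeR 4.0.16. That test had no term for animal, so sums from the same animal were treated as independent. Scripts were tested on simulated data. Nothing in the labels says more of the replicates than that they are biological, and they were taken as 4 animals. The limma p-values do not measure the spread between these animals alone. Each limma fit shared a spread estimate per target across the types it held and drew it toward a prior from all targets. The pooled fit had 11 residual and 9.95 prior degrees of freedom, and a within-animal correlation of 0.026. The joint-region fit had 7 and 33.19, and 0.14. The reference types varied more between animals than the others, so the spread shared in the pooled fit can be too small for them. Named genes were the members above background in every animal of a type and genotype or called in a fit; the rest are given by range, except 1 member whose own values are not reported here. Members and gene lists were chosen with earlier results of these data known. Replicate numbers were checked for pairing (correlations of -0.05 to 0.05) and do not pair animals.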

Additional observations from a re-analysis of the deposited data

How the results depend on the processing

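Counts of Hox genes called moved most with the reference types left out or weighted and with edgeR. In the order GOF against control in perichondrium and in inter-joint space, inter-joint space and perichondrium against border-zone cartilage, and inter-joint space against perichondrium, the pooled fit called 0 in each, the fit without reference types called 1, 3, 4, 2 and 1, the fit with type weights 1, 2, 3, 2 and 1, and edgeR 5, 3, 2, 2 and 0. For fusion against GOF inter-joint space, border-zone cartilage and perichondrium and against control inter-joint space, these counts were 0 in the pooled fit, then 8, 4, 7 and 3, then 4, 1, 4 and 1, then 6, 1, 3 and 0. Over all region types edgeR called 3, and the interaction for inter-joint space against border-zone cartilage gave 1 without reference types. For reference cartilage against border-zone cartilage, 1 was called with edgeR, a pseudocount of 3, the low-value filter or medians over regions. For mesenchyme against perichondrium edgeR called 4 in place of 2, and against reference cartilage edgeR and type weights called 1 and the ratio to the negative probe 3 in place of 5. Without regions of the general interzone tag, 1 was called for fusion against inter-joint space and 1 against perichondrium. At 3-fold, 2 genes were above background throughout in place of 6.

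Leaving out an animal from the pooled fit gave 0 to 1 for reference cartilage against border-zone cartilage, 1 to 3 for mesenchyme against perichondrium and 2 to 6 against reference cartilage. In the fit without reference types it gave 0 to 2 and 0 to 5 for genotype in perichondrium and inter-joint space, 1 to 5, 0 to 2 and 0 to 1 between joint types, 4 to 7, 1 to 3, 4 to 5 and 0 to 5 for fusion, and 0 to 1 for the interaction. Such fits leave an arm with 1 animal, assumed to vary like the others. The replicate block changed no count of calls (2 and 5 for mesenchyme against perichondrium and reference cartilage, 0 elsewhere). The type weights and the fits without reference types that left out an animal were chosen after seeing the data. None of 41 gene results, the calls of 15 genes, reversed sign in 730 result and setting combinations, though calls were gained or lost in some. These results were picked because they were called, so an unchanged sign is no added support. Leaving out the reference types, type weights and the replicate block kept the estimates, so these settings could not reverse a sign. The ratio to the negative probe moved the median of all targets by up to 0.20. The cause of these changes was not tested. Low probes near the negative probe, and 2 animals a genotype, limit the precision.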
